A study of Homo sapiens with 9 samples.

Results

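A set of 10 genes of glucose uptake and glycolysis was followed in RNA-seq libraries of A549, an established human lung adenocarcinoma cell line. They were taken by symbol from the 58735 genes of the deposited count matrix, and all 10 were found there and were tested in every comparison. Their products act in the order SLC2A1 (glucose transporter GLUT1), HK2 (hexokinase), PFKP (phosphofructokinase), ALDOA (aldolase), GAPDH (glyceraldehyde-3-phosphate dehydrogenase), PGK1 (phosphoglycerate kinase), ENO1 (enolase), PKM (pyruvate kinase) and LDHA (lactate dehydrogenase). PDK1, a kinase that inhibits the pyruvate dehydrogenase complex, was the last. A549 cells in RPMI medium with fetal bovine serum had been transfected with jetPRIME, and there were 3 libraries per group. The control group (PC3) received a control plasmid, labelled PC3.1 in replicate 1, PC3.2 in replicate 2 and PC3.3 in replicate 3, where the paper speaks of PC3.1 only. The LINC00996 group (L996) and the AP001189.3 group (RP11) received plasmids that direct overexpression of those long non-coding RNAs. The time between transfection and extraction is not given in the sources used here. The comparisons asked how each overexpressed lncRNA changed the transcriptome against the control plasmid, and how the overexpressing groups differed from each other.

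Glucose enters cells down its gradient through transporters of the SLC2A family, and hexokinase traps it by phosphorylation. The later enzymes split the sugar, recover energy as ATP and NADH, and deliver pyruvate, which lactate dehydrogenase turns into lactate while NAD is regenerated. Tumor cells often run this route fast even with oxygen present, and the transcription factors HIF1 and MYC are known to raise many of these genes. HIF1 binds the hypoxia response element, whose core is ACGTG or GCGTG.

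That core was searched on both strands in the 250 bases before the transcription start of RefSeq (GRCh38.p14). It was present in 6 of the 10 genes and in 43.1% of all 27305 promoters of the same length. It was found in HK2, ALDOA, GAPDH, PGK1, ENO1 and LDHA, and these letters were not in the windows of SLC2A1, PFKP, PKM and PDK1. The E-box CACGTG, which overlaps ACGTG, was in GAPDH and LDHA and in 6.49% of all promoters. The windows of HK2, PGK1 and LDHA are shown because all 3 hold the core, while HK2 was the gene with the largest called difference below and PGK1 and LDHA were not called in any comparison. Each is the stretch outside the annotated exons of its own gene, on the plus strand, with the core of either strand in capitals. They lie at chr2:74833877-74833980, chrX:78103998-78104173 and chr11:18394313-18394387.
HK2: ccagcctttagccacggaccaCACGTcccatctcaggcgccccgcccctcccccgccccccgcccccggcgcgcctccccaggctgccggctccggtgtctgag
PGK1: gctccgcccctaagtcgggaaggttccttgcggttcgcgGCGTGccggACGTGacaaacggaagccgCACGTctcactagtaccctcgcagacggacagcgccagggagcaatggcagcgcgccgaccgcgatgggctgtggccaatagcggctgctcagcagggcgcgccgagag
LDHA: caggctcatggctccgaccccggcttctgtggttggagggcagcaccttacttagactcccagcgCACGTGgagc
Over the whole 250 bases HK2 has 3 matches of the core, PGK1 3 and LDHA 5. In the stretches shown HK2 has 1, PGK1 has 3 and LDHA has 2, which are the overlapping matches of 1 E-box on the opposite strands. A match is a description of the letters and not a binding site. The window of SLC2A1 lies wholly inside annotated exons and is not printed.

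The library totals ran from 15272450 to 18125447 counts. LINC00996 had 4 to 9 counts in the control libraries, 4373 to 5952 with its plasmid and 7 to 8 with the AP001189.3 plasmid. AP001189.3 had 0 to 2 counts in the control libraries, 0 in the LINC00996 libraries and 1660 to 2378 with its plasmid. The counts do not separate plasmid from genomic transcripts. The 9 A549 and epithelial markers were all above 1 CPM (counts scaled to library size with TMM factors), with sums of 12611 to 12713 in the control, 16245 to 18638 in the LINC00996 and 13691 to 14271 in the AP001189.3 libraries. With LINC00996, 2 of them were called higher (ALDH1A1 at 0.99 and AKR1B10 at 0.93 on the log2 scale) and 2 lower (CDH1 at -0.89 and KRT19 at -0.40). The sum of 4 endothelial markers was 11.6 to 13.1 CPM in the control, 5.26 to 6.49 with LINC00996 and 7.28 to 9.57 with AP001189.3, and that of 5 fibroblast markers 20.9 to 23.6, 13.8 to 17.3 and 20.1 to 22.8 CPM. Mitochondrially encoded genes took 5.26% to 5.66% of the counts in the control, 6.68% to 7.18% with LINC00996 and 5.32% to 5.52% with AP001189.3, the LINC00996 libraries lying above all others. LINC00996 replicate 1 stood apart, differing from its fellow replicates by a chi-square of 22.6 and 33.7 per gene, while the other replicate pairs differed by 2.26 to 7.35. Its deviations also followed GC content, with Spearman's rho of 0.43 across 16552 genes, which are not independent replicates, against -0.24 and -0.42 in replicates 2 and 3. Control libraries stood at -0.28 to -0.0037 and AP001189.3 libraries at 0.20 to 0.35. The part of marker levels in the results below was not tested, and that of GC content was addressed only by an offset among the alternatives. SLC2A1 and HK2 were called lower with LINC00996 under this offset and also when the mitochondrially encoded genes were left out. Results that rest on replicate 1 are given without it or with each library left out in turn.

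In A549 overexpressing LINC00996, the genes of glucose uptake and phosphorylation, SLC2A1 and HK2, fell, and the remaining 8 did not pass the test. The 2 called genes make 20% of the 10, while 22.3% of all 16097 genes tested were called in this comparison, 10.7% of them higher and 11.6% lower as shares of all genes tested. Of the called genes 48.0% were higher, which became 54.6% with library size alone, 52.8% with the gene length offset and 51.5% with the GC content offset. The median log2 fold change of the 10 genes was -0.10, beside 0.01 over all genes. In A549 overexpressing AP001189.3, 4 of the 10 were called, beside 19.8% of 16023 genes (11.4% higher and 8.49% lower). The higher share of the called genes, 57.2%, was 48.3% with library size alone, 49.1% with the GC content offset and 78.7% in the fit of all 9 libraries. The 4 were PFKP, ENO1 and PKM, which were higher by small amounts, and ALDOA, which was lower. Without control replicate 2 or AP001189.3 replicate 1, 2 or 3, as with library size alone or the GC content offset, 2 of the 10 were called, and 0 were in the fit of all 9 libraries, where 1 of the 10 had an unadjusted p under 0.05 (DESeq2 called 4). Between the overexpressing groups, SLC2A1 and HK2 were again the called genes, beside 21.4% of 16095 genes (9.38% higher and 12.1% lower, a split that turned with library size alone as the scaling, where 56.1% of the called genes were higher), and were lower with LINC00996. The libraries of the compared groups did not overlap in 5, 5 and 3 of the 10 genes in these comparisons, beside 40.4%, 35.2% and 39.2% of all genes tested. The comparisons share libraries and are not independent of each other. Because bulk RNA was measured, fewer cells with a transcript and less transcript per cell cannot be told apart. Nothing in the sources states separate cultures, so p-values measure the spread between these samples, which may be technical.

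**Figure D1:**
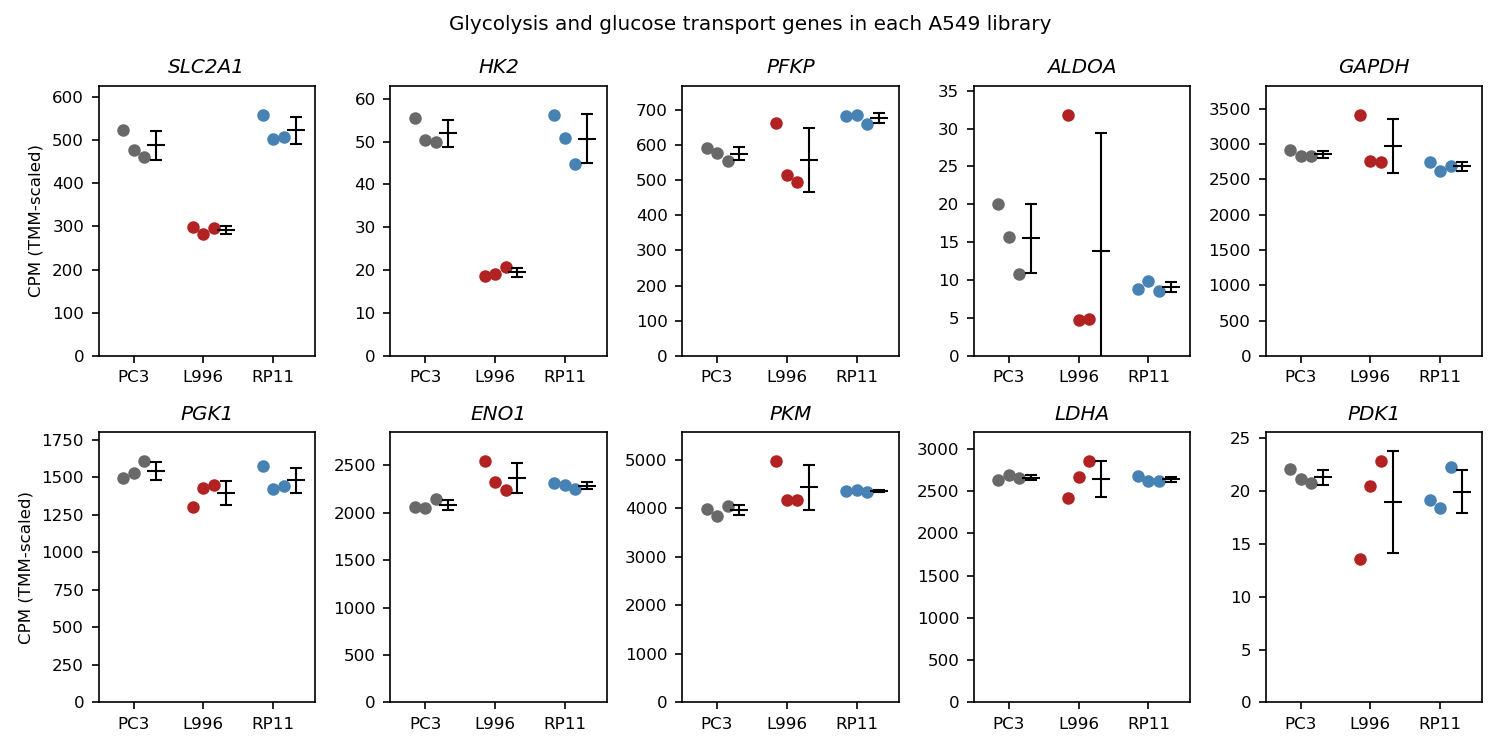
Level of each gene in CPM (TMM-scaled, linear axis from 0) in the 3 libraries of each group, with the mean and SD beside them in black. The LINC00996 points of SLC2A1 and HK2 lie below every other library, and replicate 1, the leftmost LINC00996 point, is the highest of its group in PFKP, ALDOA, GAPDH, ENO1 and PKM.

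SLC2A1, the main basal glucose transporter of many cell types, had 524, 478 and 461 CPM in control replicates 1 to 3. It had 299, 282 and 297 CPM in the LINC00996 libraries and 558, 503 and 508 CPM in the AP001189.3 libraries. All 3 LINC00996 values lay below all 6 others, while the control and AP001189.3 ranges overlapped. The means were 488 ± 32.8, 293 ± 9.23 and 523 ± 30.8 CPM (SD, n = 3 each). Against the control, SLC2A1 with LINC00996 was at 0.600 of its level, with a log2 fold change of -0.74 (95% interval -0.93 to -0.55, edgeR adjusted p = 0.000129). As large a change or a larger one was seen in 11.5% of the genes tested. The difference from the AP001189.3 group was -0.84 (standard error 0.08, edgeR adjusted p = 3.05e-05). With AP001189.3 against the control it was 0.10 (95% interval -0.01 to 0.21, edgeR adjusted p = 0.204), and without control replicate 1 this value was 0.15 with an edgeR adjusted p of 0.0417.

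HK2, the inducible hexokinase that many tumors express, moved further than SLC2A1. Its levels were 55.6, 50.4 and 49.9 CPM in the control libraries, 18.7, 19.0 and 20.7 CPM with LINC00996, and 56.2, 50.9 and 44.8 CPM with AP001189.3. The LINC00996 libraries agreed closely with one another and lay far below both other groups, whose values overlapped. The counts behind these levels were 300 to 383 per LINC00996 library and 810 to 946 per control library. HK2 with LINC00996 was at 0.375 of the control level, a log2 fold change of -1.42 (95% interval -1.65 to -1.18, edgeR adjusted p = 5.7e-06), and 2.21% of all genes tested changed as much or more. Against AP001189.3 the log2 fold change was -1.38 (standard error 0.12, edgeR adjusted p = 1.2e-05). With AP001189.3 against the control it was -0.04 (95% interval -0.20 to 0.12, edgeR adjusted p = 0.788). SLC2A1 and HK2 were called lower with LINC00996 in each of the 17 alternative analyses of both comparisons, including those without LINC00996 replicate 1, where their log2 fold changes against the control were -0.75 and -1.38.

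PFKP, the platelet-type phosphofructokinase that catalyzes the committed step, had 591, 578 and 555 CPM in the control libraries and 683, 685 and 659 CPM with AP001189.3. In the LINC00996 libraries it had 662, 515 and 496 CPM. Every AP001189.3 value was above every control value, while LINC00996 replicate 1 lay above the control range and replicates 2 and 3 below it. With AP001189.3, PFKP was higher than in the control by 0.23 on the log2 scale (standard error 0.05, edgeR adjusted p = 0.000828). An offset for GC content reduced this to 0.10 (adjusted p = 0.143), and a fit of all 9 libraries kept the size but not the call (0.23, edgeR adjusted p = 0.178). PFKP has a GC content of 57.5% in its longest transcript. With LINC00996 against the control the difference was -0.04 (95% interval -0.28 to 0.19, edgeR adjusted p = 0.811). Without LINC00996 replicate 1 it was -0.18 and was called (edgeR adjusted p = 0.0118). Between the overexpressing groups it was -0.28 (edgeR adjusted p = 0.0763), and -0.42 without LINC00996 replicate 1 (edgeR adjusted p = 4.1e-08).

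ALDOA, the aldolase of most tissues, had low and scattered counts here. The control libraries held 340, 253 and 189 counts, or 19.99, 15.7 and 10.9 CPM, and the AP001189.3 libraries 8.80, 9.88 and 8.60 CPM. The LINC00996 libraries had 31.8, 4.76 and 4.87 CPM, so that replicate 1 was the highest of all 9 libraries and replicates 2 and 3 were the lowest. ALDOA shares 53.5% of its exon bases with other annotated genes, chiefly the protein-coding AC093512.2 on the same strand (42.3%), so its value is uncertain wherever counting left out shared reads. With AP001189.3 it was lower than in the control by a log2 fold change of -0.77 (standard error 0.18, edgeR adjusted p = 0.00796), which missed the threshold without AP001189.3 replicate 1 (-0.75, edgeR adjusted p = 0.0638) and in a fit of all 9 libraries (adjusted p = 0.642). With LINC00996 the difference was -0.16 with a wide 95% interval of -2.47 to 2.15 (edgeR adjusted p = 0.922). Without LINC00996 replicate 1 it was -1.69 (edgeR adjusted p = 3.52e-05). Against AP001189.3, the value of 0.60 (edgeR adjusted p = 0.681) turned to -0.91 without that library (edgeR adjusted p = 4.48e-05).

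GAPDH, which opens the payoff phase, had the highest mean FPKM of the 10 in each group. It had 2911, 2826 and 2826 CPM in the control, 3414, 2758 and 2754 CPM with LINC00996, and 2744, 2621 and 2688 CPM with AP001189.3. The AP001189.3 values all lay below the control values, and the LINC00996 values straddled them. The log2 fold change was 0.06 with LINC00996 (95% interval -0.14 to 0.26, edgeR adjusted p = 0.694) and -0.09 with AP001189.3 (95% interval -0.18 to 0.00, edgeR adjusted p = 0.173). Under the offset for GC content the latter was -0.24 and was called (edgeR adjusted p = 0.000271), as it was under the offset for gene length (-0.16), and GAPDH had the highest GC content of the 10 genes at 58.8%. Between the overexpressing groups the value was 0.14 without overlap (edgeR adjusted p = 0.292), and 0.27 under the GC offset (edgeR adjusted p = 0.000383). LINC00996 replicate 1 was the highest of the 9 libraries. With each library left out, the value between the overexpressing groups ranged from 0.04 to 0.20, and that of LINC00996 against control from -0.05 to 0.11. GAPDH also has 62 pseudogene copies in the annotation, whose counts came to 0.389% of its own.

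PGK1, which makes the first ATP of the pathway, had 1493, 1528 and 1606 CPM in the control, 1305, 1432 and 1447 CPM with LINC00996, and 1577, 1423 and 1446 CPM with AP001189.3. The LINC00996 values lay below the control values without overlap, yet the log2 fold change of -0.15 did not pass (95% interval -0.32 to 0.03, edgeR adjusted p = 0.216). With AP001189.3 it was -0.06 (95% interval -0.16 to 0.04, edgeR adjusted p = 0.453).

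ENO1 and PKM, the enzymes before and at the last ATP-yielding step, ran alike. ENO1 had 2060, 2049 and 2142 CPM in the control, 2540, 2327 and 2234 CPM with LINC00996, and 2316, 2289 and 2244 CPM with AP001189.3. PKM had 3991, 3840 and 4039 CPM in the control, 4966, 4161 and 4172 CPM with LINC00996, and 4357, 4387 and 4335 CPM with AP001189.3. For both genes every library of either overexpressing group was above every control library. With AP001189.3 the log2 fold changes were 0.13 for ENO1 (95% interval 0.04 to 0.22, edgeR adjusted p = 0.0376) and 0.14 for PKM (95% interval 0.05 to 0.23, edgeR adjusted p = 0.0247). With LINC00996 they were 0.18 for ENO1 (95% interval 0.01 to 0.36, edgeR adjusted p = 0.12) and 0.16 for PKM (95% interval -0.02 to 0.35, edgeR adjusted p = 0.199), and under the GC offset both passed (edgeR adjusted p = 0.0156 and 0.0323). Without LINC00996 replicate 1, the highest library for both genes, the values were 0.13 for ENO1 (edgeR adjusted p = 0.0517) and 0.07 for PKM (edgeR adjusted p = 0.267). Of the 17 alternatives for AP001189.3 against the control, ENO1 passed in 7 and PKM in 11. Both missed the threshold with library size alone, in the fit of all 9 libraries, with the offset for GC content (0.06 each) and without control replicate 2 (0.12 each), AP001189.3 replicate 2 (0.13 each) or AP001189.3 replicate 3 (0.14 each). ENO1 also missed it without control replicate 1 (0.12), without AP001189.3 replicate 1 (0.12), with the gene length offset (0.11) and when low counts were not filtered (0.13). PKM encodes more than 1 isoform of pyruvate kinase, which counts per gene do not separate.

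LDHA, which makes lactate from pyruvate, had the smallest range of the 10 over the 9 libraries (0.24 log2 units). It had 2626, 2686 and 2658 CPM in the control, 2419, 2666 and 2852 CPM with LINC00996, and 2676, 2622 and 2623 CPM with AP001189.3. All group ranges overlapped. The log2 fold change was -0.01 in both comparisons with the control, with 95% intervals of -0.18 to 0.17 for LINC00996 (edgeR adjusted p = 0.964) and -0.10 to 0.08 for AP001189.3 (edgeR adjusted p = 0.917). PDK1 had 22.1, 21.1 and 20.7 CPM in the control, 13.5, 20.5 and 22.8 CPM with LINC00996, and 19.1, 18.4 and 22.2 CPM with AP001189.3. LINC00996 replicate 1 was below the other 8 libraries, which overlapped. Its log2 fold change with LINC00996 was -0.17 (95% interval -0.54 to 0.20, edgeR adjusted p = 0.517), and 0.03 without that library (edgeR adjusted p = 0.885). Between the overexpressing groups, the differences of PGK1, ENO1, PKM, LDHA and PDK1 ran from -0.09 to 0.05, with edgeR adjusted p from 0.464 to 0.992.

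**Figure D2:**
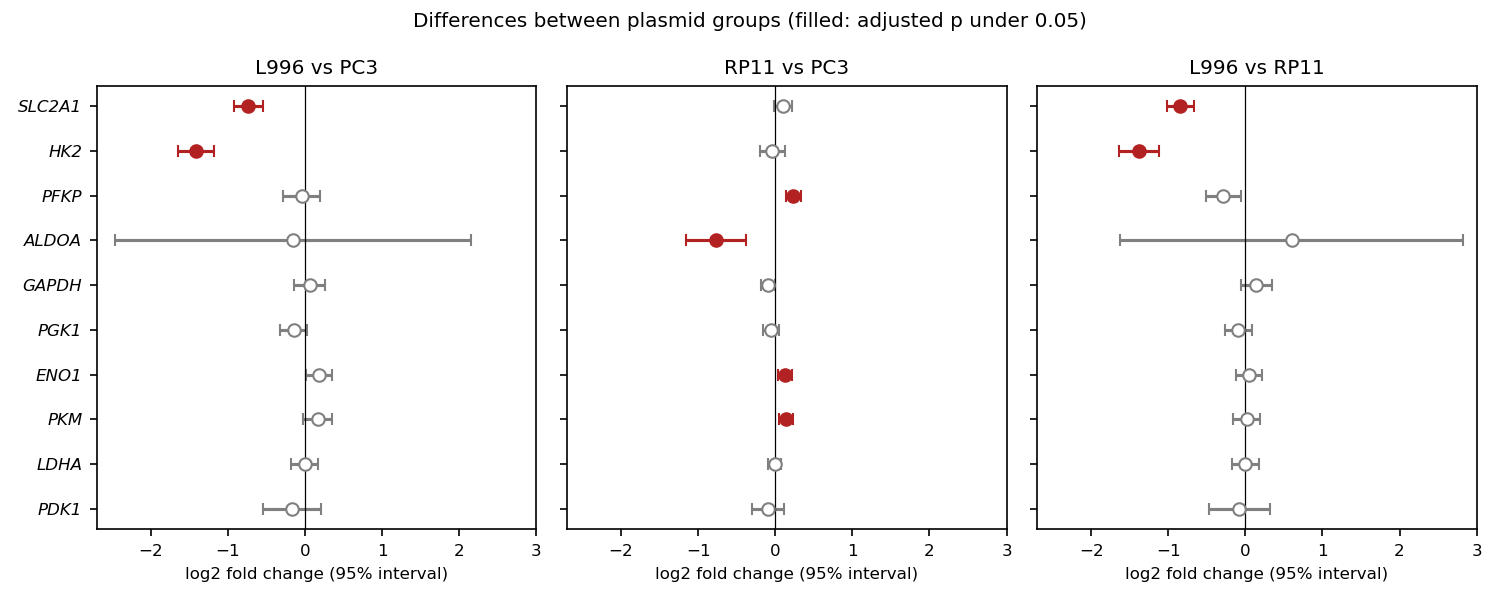
Log2 fold change (x axis) of each gene with its 95% interval in the 3 comparisons, filled where the adjusted p was under 0.05. SLC2A1 and HK2 stand well below 0 in both comparisons of LINC00996, while the called changes with AP001189.3 are at most 0.23 in size except for ALDOA at -0.77, and the ALDOA intervals with LINC00996 span several log2 units.

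Per length, in the deposited FPKM, which scale fragments by gene length and library size, the order of the levels in the control was GAPDH at 949.98, PKM at 458, LDHA at 424, ENO1 at 392, PGK1 at 278, PFKP at 118, SLC2A1 at 102, HK2 at 8.51, ALDOA at 3.94 and PDK1 at 1.42 FPKM. No neighbours in this order overlapped in their 3 libraries. The place of ALDOA is uncertain wherever counting left out shared reads, since 53.5% of its exon bases lie in other annotated genes too. With LINC00996, ENO1 at 444 FPKM stood above LDHA at 422 FPKM, with overlapping libraries. SLC2A1 was at 61.3 ± 1.79 FPKM (SD, n = 3) and kept its place below PFKP at 114 FPKM. HK2 dropped to 3.18 ± 0.187 FPKM and was overlapped by ALDOA at 3.48 ± 3.91 FPKM. With AP001189.3, ENO1 at 429 and LDHA at 422 FPKM overlapped as well, and the rest of the order was that of the control. The 10 genes together took 1.40% to 1.44% of all counts in the control, 1.46% to 1.58% with LINC00996 and 1.43% to 1.46% with AP001189.3, so that the LINC00996 shares were all above the control shares although SLC2A1 and HK2 fell.

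**Figure D3:**
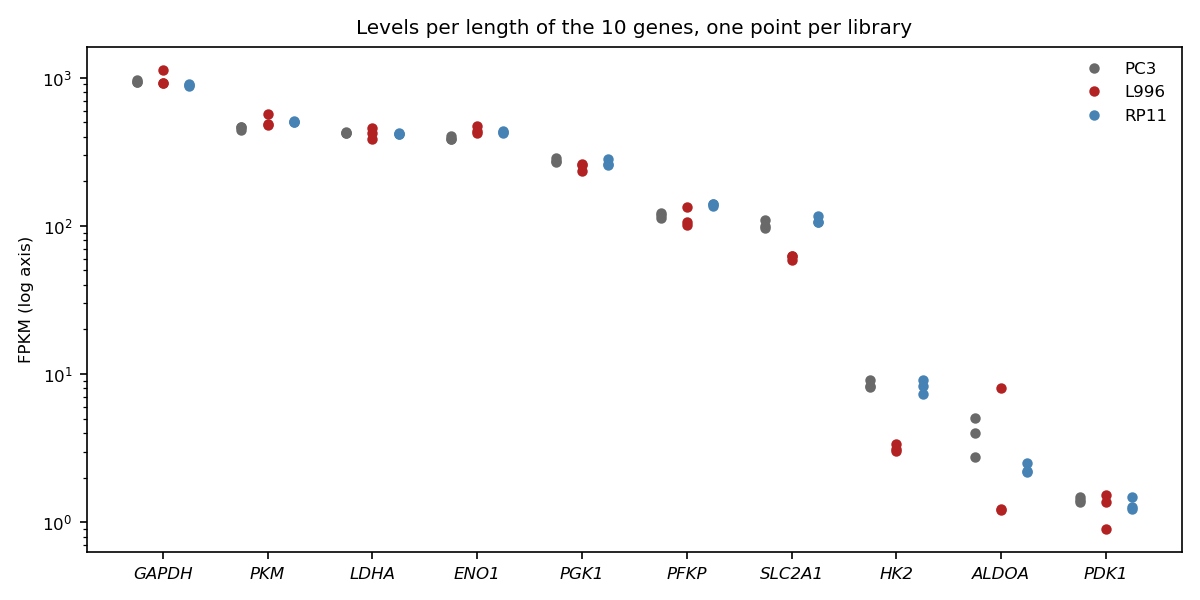
FPKM of the 10 genes on a log axis, 1 point per library, ordered by the control mean. Levels span from 949.98 FPKM for GAPDH to 1.42 FPKM for PDK1 in the control, and the 3 LINC00996 points of HK2 and of SLC2A1 lie below those of the other groups. The level of ALDOA is uncertain wherever counting left out reads shared with other genes.

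Several of the 10 share their step with other genes of the same family, and each can be set against the summed FPKM of its family, as a description with no test. HK2 made 17.2%, 17.0% and 16.5% of the FPKM of the 5 hexokinase genes in the control, 6.76%, 7.83% and 8.19% with LINC00996, and 16.6%, 15.1% and 14.0% with AP001189.3. The LINC00996 libraries lay below all others. The main partner was HK1, the housekeeping hexokinase, named here after its values were seen. HK1 was at 23.7 ± 1.01 FPKM in the control and 22.7 ± 1.33 FPKM with LINC00996 (log2 fold change -0.06, 95% interval -0.26 to 0.14, edgeR adjusted p = 0.67). With AP001189.3 it was at 27.1 ± 0.884 FPKM and was called higher by 0.20 (edgeR adjusted p = 0.00939), a call that was lost without control replicate 2 or AP001189.3 replicate 2, in the fit of all 9 libraries and with the GC content offset. The ratio of HK2 to HK1 was 0.359 ± 0.00952 in the control, 0.141 ± 0.0136 with LINC00996 and 0.305 ± 0.0363 with AP001189.3 (SD, n = 3 each). SLC2A1 made 51.1% ± 0.361 of the FPKM of 13 SLC2A genes in the control, 48.0% ± 2.22 with LINC00996 and 52.3% ± 0.379 with AP001189.3 (SD, n = 3 each). All 3 LINC00996 shares lay below the control shares, replicate 1 by the least. PFKP held 83.5% to 86.9% of the phosphofructokinase FPKM in all 9 libraries and ENO1 90.3% to 92.2% of the enolase FPKM. LDHA held 97.8% to 98.2% of the lactate dehydrogenase FPKM in the control and 95.7% to 96.8% with LINC00996, without overlap. PDK1 was a minor member of its family, at 1.67% to 3.005% of the FPKM of 4 pyruvate dehydrogenase kinases.

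**Figure D4:**
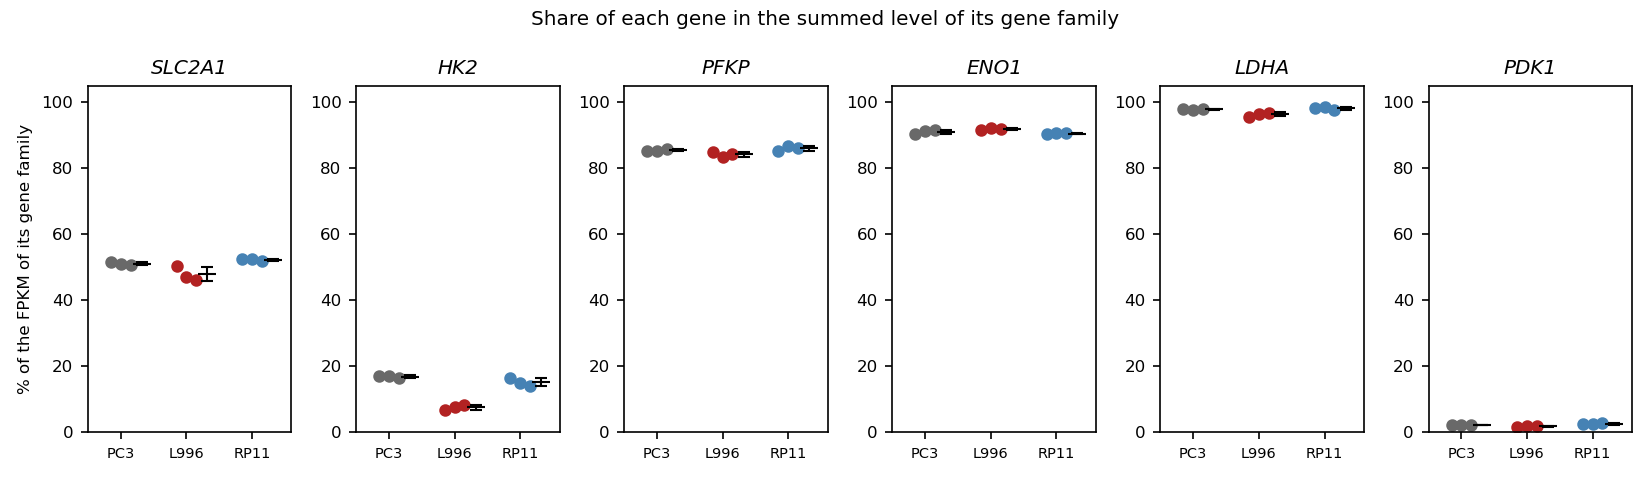
Percent of the summed FPKM of its gene family held by each of 6 genes in each library, with the mean and SD in black (linear axis from 0). HK2 makes 16.5% to 17.2% of hexokinase FPKM in the control and 6.76% to 8.19% with LINC00996, while PFKP, ENO1 and LDHA hold over 80% of their families in every group.

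Around these genes, 105 others were grouped in 9 pathway lists, chosen with earlier results of these data known. The list of 14 other glucose transporters holds genes of the SLC2A family and the sodium-coupled SLC5A1 and SLC5A2. Of these, 9 were tested, SLC5A1 among them, and with LINC00996 4 were lower, beside 11.6% of all genes, the other 5 did not pass, and the median log2 fold change was -0.43, beside 0.01 over all genes. SLC2A6, a lysosomal transporter, had 93.4, 82.0 and 81.0 CPM in the control and 52.2, 35.8 and 33.3 CPM with LINC00996, with no overlap (log2 fold change -1.08, edgeR adjusted p = 0.000495). SLC2A3, the high-affinity transporter GLUT3, had 405, 377 and 357 CPM in the control and 227, 287 and 321 CPM with LINC00996 (-0.45, edgeR adjusted p = 0.0191). SLC2A13, a myo-inositol transporter, was at -0.53 and SLC2A12 at -0.50. SLC2A6 passed in all 17 alternatives, while SLC2A3, SLC2A12 and SLC2A13 did not: the count was 1 without control replicate 2 or 3 and 2 without control replicate 1. With AP001189.3, 1 of these 9 was called, SLC2A13, at -0.23 (edgeR adjusted p = 0.0381), which passed in 9 of 17 alternatives, beside 8.49% of all genes lower.

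Of the other enzymes of glycolysis, 12 were tested with LINC00996, at a median of -0.01. Beside 10.7% of all genes higher and 11.6% lower, 1 of the 12 was called and was higher. This was TPI1, triose-phosphate isomerase, with 631, 541 and 606 CPM in the control and 942, 772 and 724 CPM with LINC00996 (log2 fold change 0.46, edgeR adjusted p = 0.0106), a call that was lost without control replicate 2 (adjusted p = 0.0742). With AP001189.3, 5 of 12 were higher and 7 did not pass, beside 11.4% of all genes called higher. They were PGAM1 (phosphoglycerate mutase, log2 fold change 0.29, edgeR adjusted p = 6.49e-05), TPI1 (0.27), PFKL (liver-type phosphofructokinase, 0.28), ENO2 (the neuronal enolase, 0.25) and HK1 (0.20). Their values lay around that of PFKP (0.23) and above those of ENO1 and PKM (0.13 and 0.14). With the offset for GC content or a fit of all 9 libraries, PGAM1 was the 1 of the 5 that passed. Among the genes that set glycolytic flux, PFKFB3, which makes the activator of phosphofructokinase, was higher in both groups, at 0.48 with LINC00996 (edgeR adjusted p = 0.00254) and 0.38 with AP001189.3 (edgeR adjusted p = 1.27e-05), and it passed in all 17 alternatives of both. It was the 1 of 5 tested that was called with AP001189.3, beside 19.8% of all genes. With LINC00996, PFKFB4, its relative, was called lower (-0.33, edgeR adjusted p = 0.0452, passing in 9 of 17 alternatives). That made 1 higher and 1 lower of 4 tested, beside 10.7% and 11.6% of all genes. Of 4 tested genes of gluconeogenesis, the reverse route, 2 were higher and 1 was lower in either comparison with the control, beside 10.7% and 11.6% of all genes with LINC00996 and 11.4% and 8.49% with AP001189.3. With LINC00996 the 3 lost their calls whenever a control replicate or LINC00996 replicate 2 was left out. With AP001189.3 the count higher was 1 without control replicate 2 or AP001189.3 replicate 1 or 2, with DESeq2 and with the GC content offset, and 0 in the fit of all 9 libraries.

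Among the genes that decide the fate of pyruvate, LDHB, the lactate dehydrogenase subunit of oxidative tissues, had 23.6, 28.9 and 26.7 CPM in the control, 52.2, 44.6 and 44.6 CPM with LINC00996 and 23.1, 18.1 and 27.6 CPM with AP001189.3. The LINC00996 values were above all others (log2 fold change 0.83 against the control, edgeR adjusted p = 0.00049). LDHB was the 1 called gene of 6 tested for lactate handling, beside 22.3% of all genes called. Without LINC00996 replicate 1, 2 of these 6 were higher and 2 lower. Of 13 genes of pyruvate entry into mitochondria, 4 were higher and 1 lower with LINC00996, beside 10.7% and 11.6% of all genes, with a median of 0.21. PDHA1, a subunit of pyruvate dehydrogenase, rose by 0.56 (edgeR adjusted p = 0.00225) and passed in all 17 alternatives. DLAT and MPC2 rose by 0.47 and 0.51, and PDP1, a phosphatase that activates the complex, fell by 0.51. The count higher was 7 without LINC00996 replicate 1, 2 without LINC00996 replicate 2 or control replicate 3, and 1 without control replicate 1 or 2, and PDP1 was not called without control replicate 2. In the pentose phosphate pathway, which branches off after hexokinase, TKT (transketolase, 0.53, edgeR adjusted p = 0.0033) and PGD (phosphogluconate dehydrogenase, 0.44, edgeR adjusted p = 0.00458) were higher with LINC00996 and passed in all 17 alternatives. Of 8 tested genes of this pathway, 3 were higher and 0 lower with LINC00996, beside 10.7% and 11.6% of all genes. With AP001189.3, the lactate exporter SLC16A3 rose by 0.50 (edgeR adjusted p = 1.87e-07), and it missed the threshold in the fit of all 9 libraries (adjusted p = 0.144).

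HIF1A, named after its values were seen, had 474, 547 and 576 CPM in the control and 454, 569 and 589 CPM with LINC00996, overlapping ranges with a log2 fold change of 0.01 (95% interval -0.23 to 0.26, edgeR adjusted p = 0.957). Among 17 other genes known as HIF targets, 9 were lower with LINC00996, 2 were higher and 6 did not pass, beside 11.6% and 10.7% of all genes, with a median of -0.33. This list too was chosen with earlier results of these data known. ANGPTL4, a secreted inhibitor of lipoprotein lipase, had 213, 198 and 192 CPM in the control, 106, 103 and 92.3 CPM with LINC00996 and 252, 212 and 233 CPM with AP001189.3. The LINC00996 values again lay below all others (log2 fold change -1.004, edgeR adjusted p = 2.36e-05). CA12, a carbonic anhydrase, was at -0.58 (edgeR adjusted p = 0.000289), P4HA2, a collagen prolyl hydroxylase, at -0.60 (edgeR adjusted p = 0.000577), and NDRG1, a stress-induced gene, at -0.58 (edgeR adjusted p = 0.000837). DDIT4 and HILPDA, named after their values were seen, were the 2 that were higher. The count lower stayed between 7 and 11 over the alternatives and was 10 without LINC00996 replicate 1, while the count higher was 1 without LINC00996 replicate 1 or control replicate 3 and 0 without control replicate 2. EGLN3 and EGLN1, oxygen-sensing hydroxylases that mark HIF for destruction and are themselves HIF targets, fell by 0.78 (edgeR adjusted p = 0.000329) and 0.48 (edgeR adjusted p = 0.00534), and EGLN2 rose by 0.74 (edgeR adjusted p = 0.00546). These 3 passed in all 17 alternatives, and of 11 tested HIF regulators 1 was higher and 3 were lower with LINC00996, beside 10.7% and 11.6% of all genes, MXI1 being the last of these (-0.43, not called when control replicate 1, 2 or 3 was left out). With AP001189.3, 2 of the 11 were higher, beside 11.4% of all genes, and the other 9 did not pass. EGLN2 was at 0.62 (edgeR adjusted p = 0.00213) and passed in all 17 alternatives. MYC was at 0.25 (edgeR adjusted p = 0.00445), a call that was lost without AP001189.3 replicate 3, in the fit of all 9 libraries and with the GC content offset. Of the other 9, 1 was lower with DESeq2, library size alone, no filter on low counts or a replicate block, and without control replicate 1. Without AP001189.3 replicate 1, 2 were lower. The count higher among the 11 was 3 with the gene length offset.

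With AP001189.3, 5 of the 17 targets were higher, 2 were lower and 10 did not pass, beside 11.4% higher and 8.49% lower of all genes, with a median of 0.08. ADM (adrenomedullin) had the smallest adjusted p among them, at 0.56 (edgeR adjusted p = 6.56e-08), and DDIT4 was higher by more, at 0.69 (edgeR adjusted p = 0.0222), a call that was lost without control replicate 2 or AP001189.3 replicate 1 or 3. The count higher was 2 without AP001189.3 replicate 1 and in the fit of all 9 libraries, and 3 without control replicate 2 and with the offset for GC content. The count lower was 0 without control replicate 2, without AP001189.3 replicate 2 and in the fit of all 9 libraries. It was 1 without control replicate 1 or 3 or AP001189.3 replicate 3, with DESeq2 and with the offset for GC content. Without AP001189.3 replicate 1 it was 3, so that more were lower than higher. The direct comparison of LINC00996 with AP001189.3 put 11 of the 17 lower and 6 without a call, beside 12.1% of all genes lower, with a median of -0.42. That count ran from 6, without AP001189.3 replicate 1, to 14, with the offset for GC content, and was 7 without AP001189.3 replicate 3 or LINC00996 replicate 2. ADM was at -1.14 (edgeR adjusted p = 5.82e-06) and ANGPTL4 at -1.22 (edgeR adjusted p = 7.22e-06) in it, next to SLC2A1 at -0.84 and HK2 at -1.38.

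**Figure D5:**
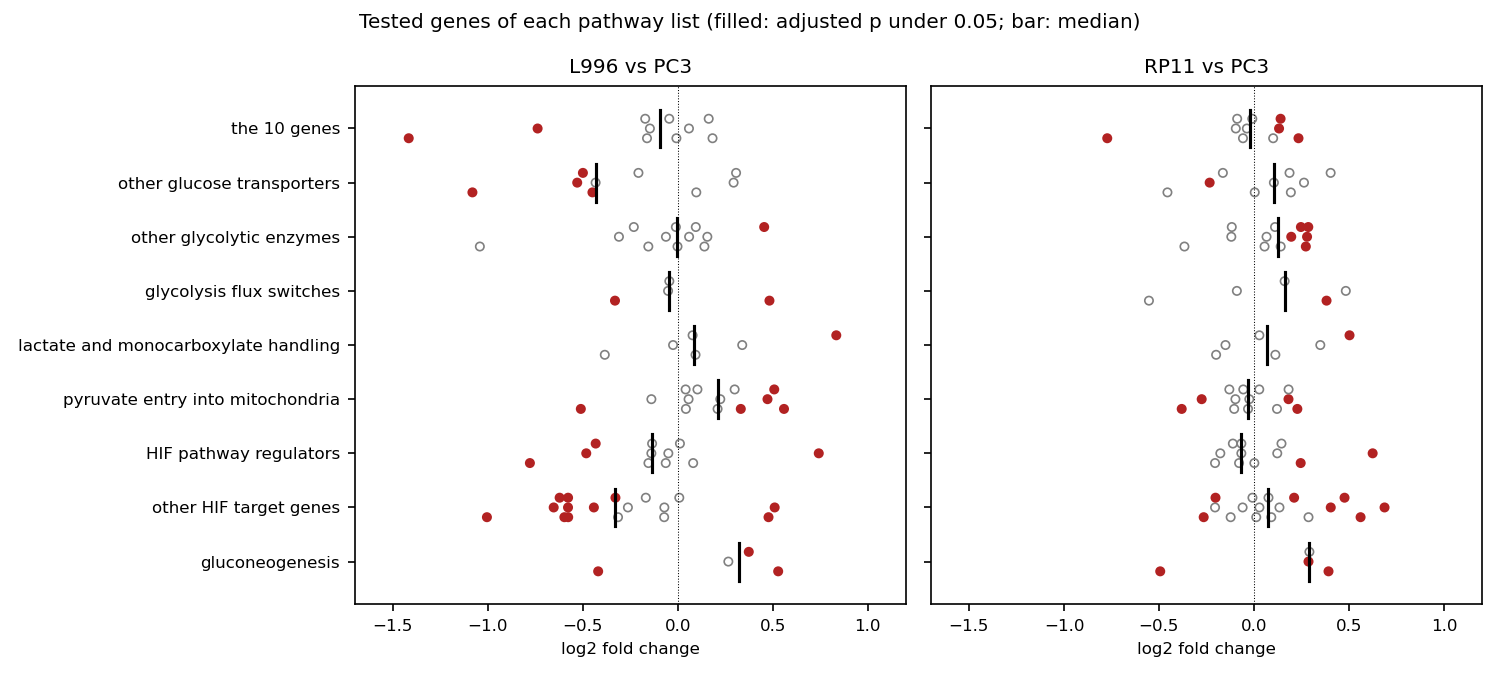
Log2 fold change (x axis) of the tested genes of 9 lists in LINC00996 against control (left) and AP001189.3 against control (right), filled where the adjusted p was under 0.05, with the list median as a black bar. The medians of the other glucose transporters and other HIF targets lie at -0.43 and -0.33 on the left and at 0.10 and 0.08 on the right.

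By the root mean square difference from the median pattern of the 10 genes over the 9 libraries, the most alike of 9851 genes with a mean of at least 10 CPM were TSPAN14 (0.0273), BECN1 (0.0346), ZNF706 (0.0347) and WDR45B (0.0365 log2 units). That median pattern stayed within -0.04 to 0.04 log2 units of the mean in every library, and ALDOA, HK2 and SLC2A1 departed from it most, by a root mean square of 0.82, 0.64 and 0.36 log2 units. LDHA and PGK1 departed by 0.07 and 0.08.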

How the data were processed

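RNA of 9 A549 samples was sequenced with paired reads of 150 bp. Per the labels, GRCh38, HISAT2 2.0.5, featureCounts 1.5.0-p3, DESeq2 1.20.0 and edgeR 3.22.5 were used in the submitters' processing, and whether counting used strand is not given in the sources used here. The authors deposited raw counts per gene and FPKM per library. Gene coordinates equalled GENCODE 29 for all 58735 genes. Groups came from the sample titles. Each comparison was fitted on its 6 libraries with edgeR 4.0.16 in R 4.3.3 (filterByExpr, TMM, robust quasi-likelihood test) and p-values were adjusted over all genes by Benjamini-Hochberg with a threshold of 0.05. CPM used TMM factors of all 9 libraries. FPKM was used for levels between genes. GC content was that of the longest transcript, and GC content entered as an offset from a loess curve (span 0.75) of each library. The procedure was tested on simulated data. Alternatives included DESeq2 1.42.0, RLE size factors, other filters and each library left out. Alternatives for lists, and AC093512.2 added to ALDOA, were chosen after seeing the data. The members and lists were chosen with earlier results of these data known. The text names the 10 genes, up to 4 called genes per list with the smallest adjusted p, overlapping genes and copies, the 5 most alike genes and the overexpressed lncRNAs, other names being marked. Some genes that this rule gives are not reported here. Counting error is smallest for the abundant genes, and PDK1, ALDOA and HK2 had 75 to 952 counts per library.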

Additional observations from a re-analysis of the deposited data

How the results depend on the processing

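SLC2A1 and HK2 were called lower with LINC00996 against both other groups in all 17 alternatives. Of 513 alternative values of the 10 genes, 452 kept direction and side of the threshold, 12 gained the call, 20 lost it and 29 changed sign. The cause of each change was not tested. With the GC content offset, 6021 genes and 4 of the 10 (ENO1 and PKM higher) were called for LINC00996 against control, 5997 genes and 4 of the 10 for LINC00996 against AP001189.3, and 2 of the 10 (ALDOA and GAPDH lower) for AP001189.3 against control. For AP001189.3 against control, library size alone called 2 of the 10 and the fit of all 9 libraries 437 genes and 0 of the 10, with 1 of the 10 at an unadjusted p under 0.05 in that fit and 4 called by DESeq2. Leaving out each library gave 1925 to 5481 genes and 2 to 4 of the 10 for LINC00996 against control, 1914 to 3598 and 2 to 4 for AP001189.3 against control, and 1840 to 6828 and 2 to 4 for LINC00996 against AP001189.3. The highest counts of LINC00996 came without its replicate 1. The share of called genes that were higher in LINC00996 against AP001189.3 was 43.7%, and 56.1% with library size alone, 56.0% with the GC content offset and 54.4% with the gene length offset.

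The LDHA log2 fold change turned positive for LINC00996 against control with library size alone (0.028), at least 10 counts in every library (9.8e-06), the GC content offset (0.020), the gene length offset (0.038) and no mitochondrially encoded genes (0.0025). Against AP001189.3 it did so with DESeq2 (0.00088), library size alone (0.062), no filter (0.00087), all 9 libraries (0.0028) and the gene length offset (0.052). For AP001189.3 against control, the GC content offset gave 0.040 for LDHA and 0.00024 for PGK1. With each library left out, LINC00996 against control ranged from -0.18 to 0.034 for PFKP, -1.69 to 0.25 for ALDOA, -0.050 to 0.11 for GAPDH, -0.064 to 0.055 for LDHA and -0.33 to 0.026 for PDK1. HK2 ranged from -0.12 to 0.044 for AP001189.3 against control. LINC00996 against AP001189.3 ranged from -0.91 to 1.01 for ALDOA, -0.0010 to 0.084 for ENO1, -0.065 to 0.063 for PKM, -0.062 to 0.064 for LDHA and -0.24 to 0.12 for PDK1.

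Same-numbered replicates were not paired by the labels, and their deviations correlated by only 0.16, 0.02 and 0.09 (LINC00996 and control), 0.05, -0.02 and 0.04 (AP001189.3 and control) and 0.09, 0.01 and 0.07 (LINC00996 and AP001189.3). With a replicate block, 4500, 3466 and 3772 genes and 2, 4 and 3 of the 10 were called. Adding the counts of AC093512.2 to ALDOA gave -0.067, -0.62 and 0.54 for LINC00996 and AP001189.3 against control and for LINC00996 against AP001189.3. ALDOA, PDK1 and HK2 had the fewest counts of the 10, and 3 libraries per group limit every interval.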
